A study of Mus musculus with 21 samples.

Results

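The genes described here are targets of the tumour suppressor p53 other than Ccng1, measured in mouse liver after antagonism of microRNA-122, which in the body is found mostly in liver cells. The list was fixed by gene symbol and held 10 genes, namely Rrm2b, Cdkn1a, Mdm2, Bax, Trp53inp1, Sesn2, Gdf15, Btg2, Fas and Phlda3. Of these, 8 were measured by probe sets that carry their symbol alone, out of 18193 genes measured in that way, and Bax and Gdf15 were not analysed here. The question was whether Rrm2b rose alone in treated liver or together with the rest of the p53 programme.

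Liver RNA came from 18 female NMRI mice, an outbred stock, of whom 9 had received SPC3372, an antimiR built from locked nucleic acid that binds microRNA-122, and 9 had received the saline vehicle. The treated mice were given 25 mg per kg on day 2 of the study. At each of days 3, 9 and 23, 3 treated and 3 saline mice were killed, so that each day had its own saline controls. Days 3 and 9 were hybridised in the array set labelled p0617 and the comparison of day 23 in the set labelled p0621. Treated mice 36, 37 and 38 of day 23 were hybridised in both sets. Mouse numbers in the labels repeat between days 3 and 9 (saline mice 1, 2 and 3, and treated mouse 8). Because the mice were killed on their day, the numbers were read as given within a day, and samples of different days were treated as separate mice. The labels give no age for the mice.

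The transcription factor p53 is activated by DNA damage and other stresses and switches on genes for cell cycle arrest, DNA repair, cell death and its own control. Mdm2, itself a p53 target, marks p53 for degradation and so limits the response. Rrm2b encodes p53R2, a small subunit of ribonucleotide reductase that supplies deoxynucleotides to cells outside S phase, for repair and for mitochondrial DNA. Ccng1, cyclin G1, is both a classic p53 target and a known target of microRNA-122, and it is given below only as a point of comparison.

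All values are log2 expression values from Affymetrix arrays, on which a difference of 1 is a change of 2-fold, and the median of all probe sets was 4.79. Each gene is shown by its brightest probe set, a difference is treated minus saline, and a gene is said to have risen or fallen where the adjusted p of limma was under 0.05. The 7 measured hepatocyte markers were the brightest of the marker genes, with means from 11.7 for Hnf4a to 14.8 for Alb. Bulk liver RNA cannot tell fewer cells of a type apart from less RNA per cell. Array medians lay between 4.75 and 4.82. With 3 arrays a group, precision is set by their small number.

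The element that p53 binds is a pair of half-sites of 10 bases, and single half-sites were searched for and are printed here. RefSeq promoter windows (build GRCm38.p6, 250 bases before to 50 after a start) were found for 6 of the 8 measured genes. No window was found for Rrm2b and Trp53inp1, so they were not searched. Of the 6 genes, 2 held the p53 consensus half-site on either strand, Cdkn1a and Mdm2. The half-site reads alike on both strands, and Cdkn1a held 2, of which the one nearer the start is shown. It was present in 8.36% of all 32851 windows and in 2 of the 7 windows of these 6 genes. The stretches below run 5′ to 3′ on the gene's strand, with the half-site in capitals. The Cdkn1a stretch lies at chr17:29090918-29090947 on the plus strand, the Mdm2 stretch at chr10:117710925-117710954 on the minus strand and the Ccng1 stretch at chr11:40755452-40755481 on the minus strand. Each lies upstream of the annotated start of its own window, by 51 bases in Cdkn1a, 186 in Mdm2 and 185 in Ccng1. Cdkn1a had 2 windows, and the one of its other start (chr17:29093519-29093818) held 0 half-sites.
Cdkn1a: tggccttcagGAACATGTCTtgacatgttc
Mdm2: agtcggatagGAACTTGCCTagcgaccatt
Ccng1: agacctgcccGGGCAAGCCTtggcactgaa
A match of letters is a description of these windows and does not show that p53 was bound there.

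Rrm2b was higher in treated liver at all 3 days. At day 3 it stood at 6.46, 6.65 and 6.38 in the treated mice, against 5.68, 5.81 and 6.04 in the saline mice. The lowest treated mouse lay above the highest saline mouse, and the level was 1.57-fold higher (log2 difference 0.65, SE 0.10, adjusted p = 0.000858). At day 9 the treated mice lay at 6.49, 6.51 and 6.52, against 5.99, 6.06 and 6.23 in the saline mice. The treated mice were nearly equal to each other that day (SD 0.01, n = 3), and Rrm2b was 1.33-fold higher (log2 difference 0.41, SE 0.10, adjusted p = 0.0312). At day 23 the values were 6.44, 6.33 and 6.27 in treated mice, against 5.75, 5.85 and 5.84 in saline mice. The groups again did not overlap, and the level was 1.44-fold higher (log2 difference 0.53, SE 0.10, adjusted p = 0.0338).

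Among 18193 genes, 14 were higher with an adjusted p under 0.05 at all 3 days, which is 0.077%, and they included Rrm2b and Ccng1. The size of the Rrm2b difference was not shown to change. It differed between days 9 and 3 by -0.24 (95% interval -0.53 to 0.05), and between days 23 and 3 by -0.13 (-0.42 to 0.17). In order of level, the treated groups of day 9 (6.50 ± 0.01), day 3 (6.50 ± 0.14) and day 23 (6.34 ± 0.08) came first. The saline groups of day 9 (6.09 ± 0.12), day 3 (5.84 ± 0.18) and day 23 (5.82 ± 0.05) came after them (log2, SD, n = 3 each). The first 2 treated groups differed by 0.01 (95% interval -0.20 to 0.21). The values of day 23 come from the other array set, so their place in this order cannot be told apart from the set.

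The day 3 call of Rrm2b held under all 28 other settings (adjusted p 0.000316 to 0.042), while those of days 9 and 23 lay close to the threshold. Day 9 lost its call without treated replicate 1, 2 or 3 (adjusted p = 0.0799, 0.072 and 0.1) and without saline replicate 1 or 2 (0.115 and 0.0868), with differences of 0.36 to 0.42. Day 23 lost it without any 1 of its 6 arrays (adjusted p 0.0617 to 0.102, differences 0.48 to 0.57), without saline replicate 1 of day 9 (0.0531) and with the replicate block (0.0534). On the p0617 arrays, mice 36, 37 and 38 read 6.07, 6.09 and 6.22 for Rrm2b, each below its own p0621 value. The log2 difference from the saline mice, which were measured in p0621, was then 0.31 (adjusted p = 0.14).

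**Figure D1:**
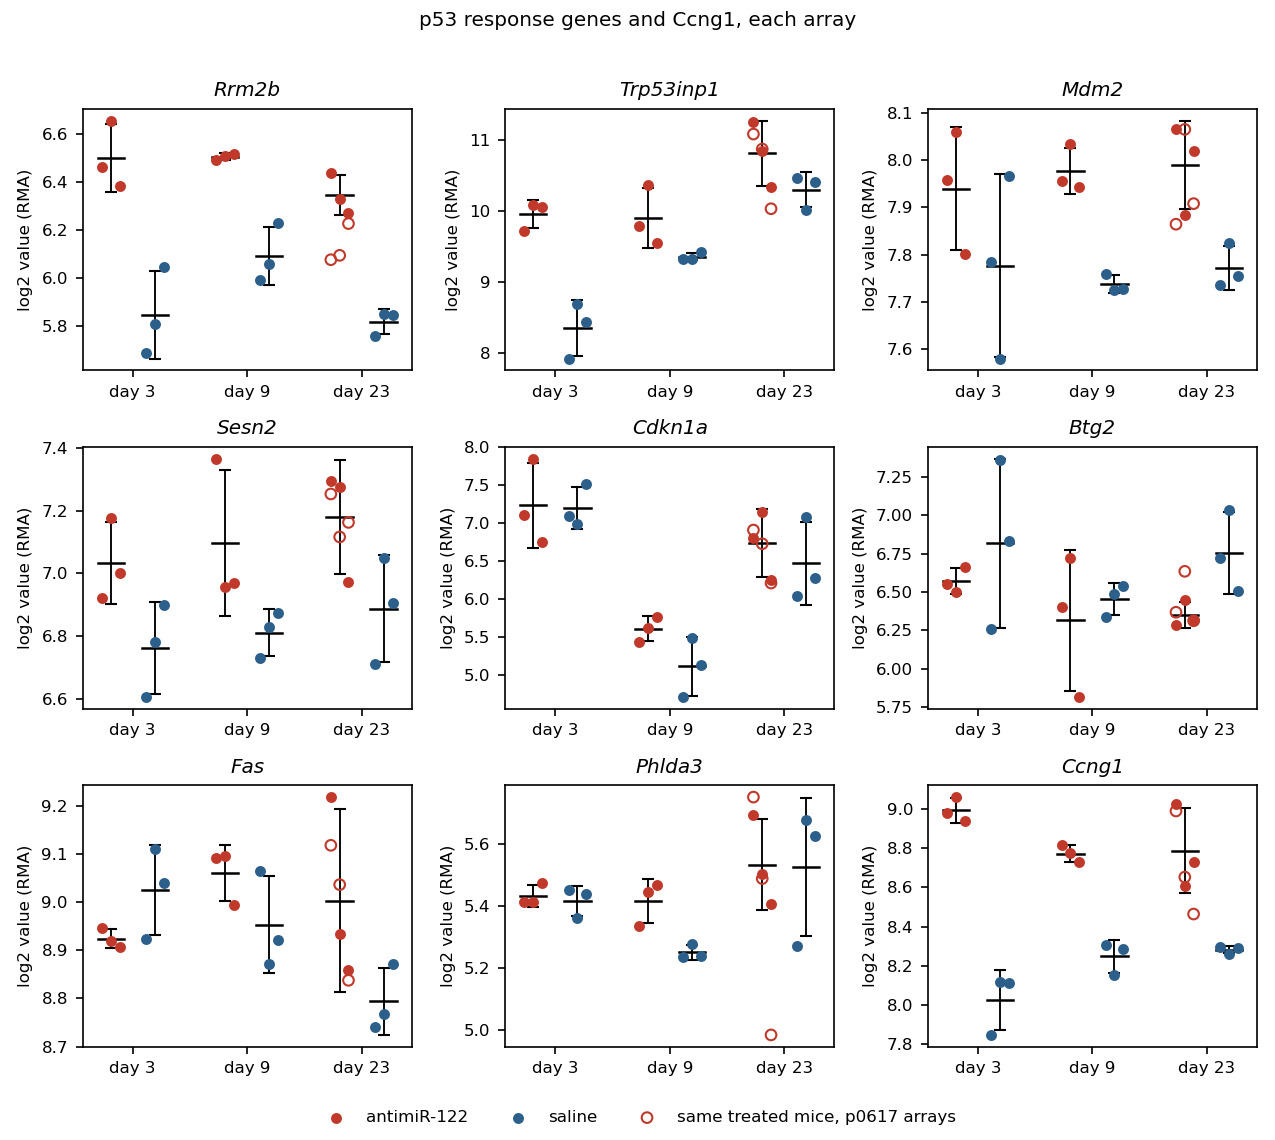
Log2 expression (RMA, vertical axes, each with its own range) of the 8 measured p53 response genes and of Ccng1 in each mouse, with antimiR-122 mice left of saline mice at days 3, 9 and 23. Filled points are the arrays compared, horizontal lines are group means with SD bars (n = 3), and open points are the p0617 arrays of the treated mice of day 23. Treated Rrm2b values lie above all saline values of the same day on each of the 3 days, and Trp53inp1 in saline mice is lowest at day 3.

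Rrm2b is measured by 4 probe sets, and they differed in brightness. The brightest (1433773_at, mean 6.18) gave the values above. The next (1437476_at) had a mean of 4.003, so it was dimmer than the median probe set. It differed by 0.78 at day 3 (SE 0.20, adjusted p = 0.045 over every probe set), by 0.31 at day 9 and by 0.24 at day 23 (adjusted p = 0.505 and 0.697). The other 2 had means of 2.69 and 2.61 and differences between -0.13 and 0.21, none past the test. Averaged over the 4 probe sets, the Rrm2b differences were 0.33, 0.23 and 0.15 at days 3, 9 and 23, and the calls of days 9 and 23 ended (adjusted p = 0.101 and 0.37).

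Trp53inp1 encodes a nuclear protein that assists p53 and takes part in autophagy. At day 3 it stood at 9.72, 10.08 and 10.06 in treated mice, against 7.92, 8.69 and 8.44 in saline mice. The groups lay over 1 unit apart, and the level was 3.05-fold higher (log2 difference 1.61, SE 0.24, adjusted p = 0.000682), the largest difference among the 8 genes. At day 9 the treated mice lay at 9.78, 10.38 and 9.54, against 9.33, 9.33 and 9.42 in the saline mice. These groups did not overlap either, but the difference of 0.54 did not pass (SE 0.24, adjusted p = 0.249). At day 23 the values were 11.26, 10.84 and 10.34 in treated mice, against 10.47, 10.02 and 10.41 in saline mice. The groups overlapped and the difference was 0.52 (SE 0.24, adjusted p = 0.337).

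On the brighter probe set of Trp53inp1, the saline level moved between days 3 and 9 and the change in the treated level did not pass the test. Saline mice of day 9 were 1.01 higher than saline mice of day 3 (SE 0.24, adjusted p = 0.0152), whereas treated mice differed by -0.06 (95% interval -0.55 to 0.44, adjusted p = 0.907). The test of the change in the treated minus saline difference between these days gave -1.07 (SE 0.33, unadjusted p = 0.00518, adjusted p = 0.216), which did not pass. The dimmer Trp53inp1 probe set (1416927_at, mean 4.92) differed by 0.27 at day 3 (SE 0.18, adjusted p = 0.553 over every probe set), by 0.48 at day 9 and by 0.39 at day 23. Its mean went from 4.32 at day 3 to 4.81 at day 9 in saline mice, and from 4.59 to 5.29 in treated mice. There the treated level moved as well, and these changes between days were not tested. Averaged over both probe sets the day 3 difference was 0.94 and kept its call (adjusted p under 0.05), against 1.61 on the brighter one.

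The 2 genes of feedback and stress metabolism, Mdm2 and Sesn2, had positive differences at every day, none of which passed the test. Mdm2 read 7.96, 8.06 and 7.80 in treated mice at day 3, against 7.78, 7.58 and 7.97 in saline mice, and these groups overlapped. At day 9 it read 7.96, 8.03 and 7.94 in treated mice, against 7.76, 7.73 and 7.73 in saline mice. At day 23 it read 8.07, 7.88 and 8.02 in treated mice, against 7.74, 7.83 and 7.76 in saline mice. The groups did not overlap on these last 2 days, although the differences of 0.16, 0.24 and 0.22 (SE 0.09 each) had adjusted p-values of 0.393, 0.199 and 0.313. The second Mdm2 probe set (1427718_a_at, mean 7.02) differed by -0.02, 0.31 and 0.27, so that the 2 bright probe sets had opposite signs at day 3. The dimmest Mdm2 probe set, with a mean of 3.27, differed by -0.01, -0.03 and -0.00051.

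Sesn2, a sestrin that restrains mTORC1 signalling when amino acids are short, read 6.92, 7.18 and 7.0004 in treated mice of day 3, against 6.61, 6.78 and 6.90 in saline mice. At day 9 it read 7.36, 6.96 and 6.97 in treated mice, against 6.73, 6.83 and 6.87 in saline mice. Neither day showed an overlap of the groups. At day 23 the values of 7.29, 7.28 and 6.97 in treated mice overlapped those of 6.71, 7.05 and 6.90 in saline mice. The differences were 0.27, 0.29 and 0.29 (SE 0.13 each, adjusted p = 0.266, 0.263 and 0.314). The dimmer Sesn2 probe set, with a mean of 4.77, differed by 0.05, 0.19 and 0.33 and did not pass.

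The genes of cell cycle arrest did not pass at any day. Cdkn1a, the cyclin-dependent kinase inhibitor p21 and the best known p53 target, read 7.10, 7.85 and 6.76 in treated mice of day 3, against 7.09, 6.99 and 7.52 in saline mice. At day 9 it read 5.44, 5.62 and 5.76 in treated mice, against 4.71, 5.49 and 5.13 in saline mice. The day 23 values were 6.80, 7.15 and 6.26 in treated mice, against 6.04, 7.08 and 6.28 in saline mice. The groups overlapped at each day, with differences of 0.03, 0.49 and 0.27 (SE 0.30 each). The 95% intervals were wide, -0.59 to 0.66 at day 3, -0.13 to 1.12 at day 9 and -0.36 to 0.89 at day 23. They include differences as large as that of Rrm2b, so a rise of that size in Cdkn1a was neither shown nor excluded in these mice.

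On the brightest Cdkn1a probe set, the differences between days 3 and 9 were larger than any between treatments. In saline mice day 9 differed from day 3 by -2.09 (SE 0.30, adjusted p = 0.000368), and in treated mice by -1.63 (SE 0.30, adjusted p = 0.00192). Over the 18 arrays it ranged from 4.71 to 7.85. Its second probe set (1421679_a_at, mean 5.21) differed between treated and saline mice by 0.20, 0.08 and 0.19, none past the test. That probe set did not show the large change between days. Its mean went from 5.21 at day 3 to 5.06 at day 9 in saline mice, and from 5.40 to 5.13 in treated mice (not tested).

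Btg2, an antiproliferative gene that also responds to growth signals as an immediate early gene, was the one measured member with a negative difference at every day. It read 6.55, 6.50 and 6.67 in treated mice of day 3, against 6.26, 7.36 and 6.83 in saline mice. At day 9 it read 6.40, 6.72 and 5.82 in treated mice, against 6.34, 6.49 and 6.54 in saline mice. At day 23 it read 6.29, 6.45 and 6.32 in treated mice, against 6.72, 7.03 and 6.50 in saline mice. Only this last day had no overlap, with the treated mice below. The differences of -0.25, -0.14 and -0.40 (SE 0.23 each, adjusted p = 0.641, 0.817 and 0.457) did not pass. The dimmer Btg2 probe set, with a mean of 4.90, differed by -0.09, -0.66 and -0.26, and did not pass either.

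Fas, the death receptor, was bright and steady. It read 8.95, 8.92 and 8.91 in treated mice of day 3, against 8.92, 9.11 and 9.04 in saline mice. At day 9 it read 9.09, 9.09 and 8.99 in treated mice, against 9.07, 8.87 and 8.92 in saline mice. Fas at day 23 read 9.22, 8.93 and 8.86 in treated mice, against 8.74, 8.77 and 8.87 in saline mice. The groups overlapped each time, and the 95% intervals of the difference were -0.30 to 0.09, -0.09 to 0.30 and 0.01 to 0.40 at days 3, 9 and 23. The difference of 0.21 at day 23 had an unadjusted p of 0.0365 and an adjusted p of 0.32.

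Phlda3, a small protein that competes with Akt for membrane lipids, was the dimmest of the 8 genes, with a mean of 5.43 over 18 arrays. Its treated and saline values lay within 5.24 and 5.69. The differences were 0.02, 0.17 and 0.01 (SE 0.10 each, adjusted p = 0.96, 0.427 and 0.981). The upper bounds of the 95% intervals, 0.22 at day 3 and 0.22 at day 23, lay below the Rrm2b differences of those days. At day 9 the bound was 0.37, and the groups did not overlap, with 5.34, 5.45 and 5.47 in treated mice, against 5.24, 5.28 and 5.24 in saline mice.

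**Figure D2:**
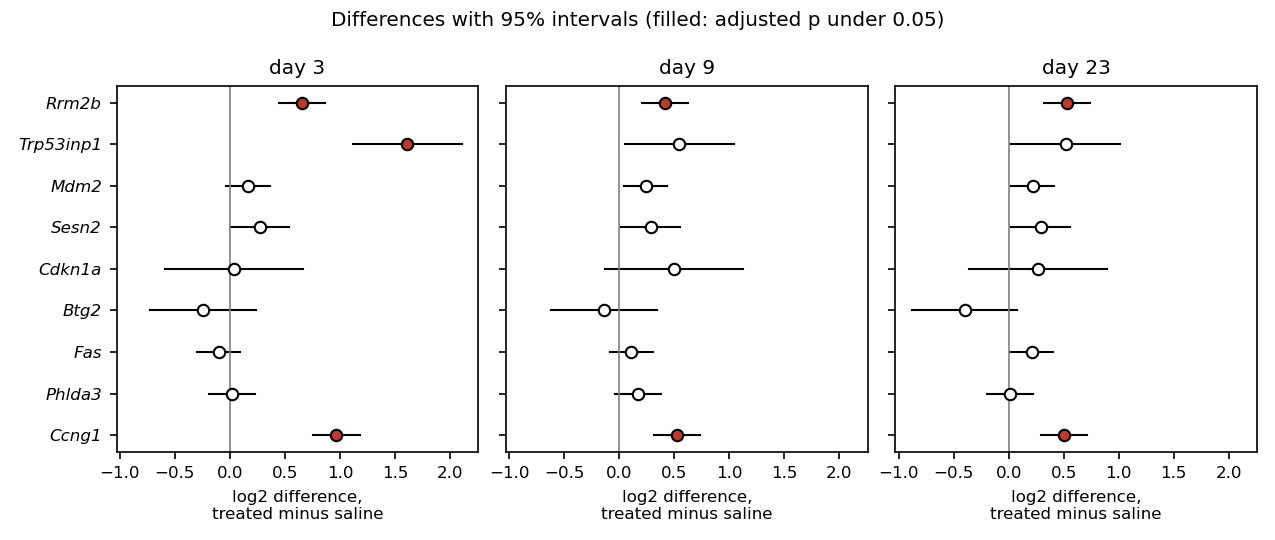
Treated minus saline difference (log2, horizontal axes) with its unadjusted 95% interval from the limma fit, for the 8 measured p53 response genes and Ccng1 (rows) at days 3, 9 and 23. Filled points have an adjusted p under 0.05. These are Rrm2b and Ccng1 at each day and Trp53inp1 at day 3.

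Counted together, 2 of the 8 measured genes rose at day 3, Rrm2b and Trp53inp1, beside 2.63% of all genes. At days 9 and 23 Rrm2b was the 1 gene of the 8 that rose, beside 1.91% and 0.187% of all genes. None fell at any day, beside 1.88%, 0.896% and 0.198% of all genes. Of the 8 differences 6, 7 and 7 were positive at days 3, 9 and 23, beside 52.8%, 45.1% and 45.3% of all genes. At an unadjusted p under 0.05 the counts were 3, 4 and 5 of 8, beside 3328, 3052 and 2522 of 18193 genes. The median difference over the 8 genes was 0.10, 0.26 and 0.24 at days 3, 9 and 23, beside 0.01, -0.02 and -0.02 over all genes. The 3 treated mice lay above all 3 saline mice in 3 of the 8 genes at day 3, 5 at day 9 and 2 at day 23, beside 11.1%, 10.4% and 8.12% of all genes. They lay below all 3 saline mice in 0, 0 and 1 of the 8, beside 10.4%, 11.2% and 11.1%. Rrm2b was the 1 gene of the 8 whose treated mice lay above all saline mice at all 3 days, beside 1.28% of all genes.

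The mean of the 3 daily differences, a contrast added after the values of single days had been seen, pools 9 treated and 9 saline mice. In it 4 of the 8 genes were higher by limma, beside 5.6% of all genes, and 0 were lower, beside 6.01%. The 4 were Trp53inp1 (0.89, SE 0.14, adjusted p = 0.000449), Rrm2b (0.53, SE 0.06, adjusted p = 1.74e-05), Sesn2 (0.28, SE 0.07, adjusted p = 0.0179) and Mdm2 (0.21, SE 0.05, adjusted p = 0.0195). Cdkn1a (0.27, SE 0.17), Btg2 (-0.26, SE 0.13), Fas (0.07, SE 0.05) and Phlda3 (0.06, SE 0.06) did not pass. The Mdm2 call ended on the mean of its probe sets (0.13, adjusted p = 0.0701) and when the signal of the actin 3′ control probe set was added to the fit (adjusted p = 0.0571). On the mean of its 4 probe sets the Rrm2b difference was 0.24 (adjusted p = 0.00143), against 0.53 on the brightest.

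Whether a difference changed between days was tested directly, and 0 of the 8 genes passed for any pair of days by limma. Among all genes 0.143% passed for day 9 minus day 3 (0.0495% upward and 0.0934% downward). For day 23 minus day 3, 0.302% passed (0.0605% upward and 0.242% downward), and for day 23 minus day 9, 0.0055%, all upward. At an unadjusted p under 0.05 the counts were 1, 2 and 0 of 8, beside 2117, 1866 and 1581 of 18193 genes. The members counted were Trp53inp1 in both comparisons with day 3 and Fas for day 23 minus day 3 (0.31, SE 0.13, adjusted p = 0.428). In the saline mice alone, 1 of the 8 genes was higher at day 9 than at day 3, Trp53inp1, beside 2.76% of all genes, and 1 was lower, Cdkn1a, beside 3.12%. In the treated mice alone Cdkn1a was lower at day 9, beside 4.95% of all genes, and 0 were higher by limma (0 also at an unadjusted p under 0.05), beside 7.28%.

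**Figure D3:**
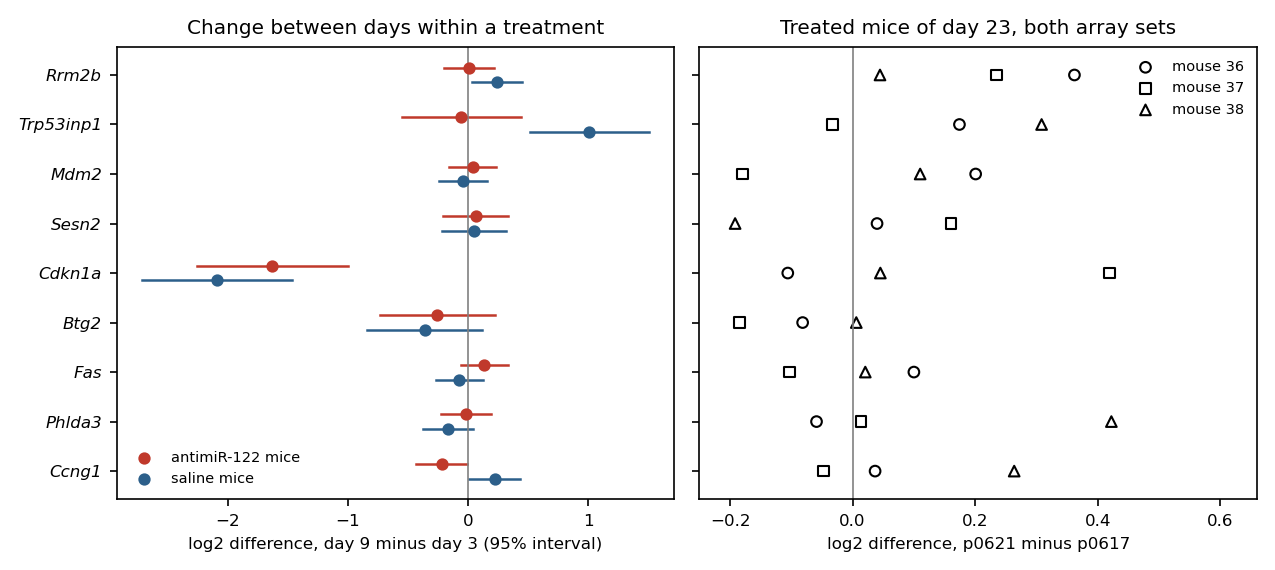
The left panel shows the log2 difference of day 9 minus day 3 within antimiR-122 mice and within saline mice, with 95% intervals, for the 8 genes and Ccng1. Cdkn1a lies far below 0 in both and Trp53inp1 above 0 in saline mice. The right panel shows the log2 difference between the p0621 and p0617 arrays of treated mice 36, 37 and 38 of day 23, which for Rrm2b is positive in all 3 mice.

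The 3 treated mice of day 23 give a repeat measurement of every gene. For Rrm2b the p0621 array read 0.36, 0.23 and 0.04 higher than the p0617 array in mice 36, 37 and 38 (mean 0.21, SE 0.09, adjusted p = 0.489 by limma with the mouse as a block). The repeat arrays differed by -0.11, 0.42 and 0.05 for Cdkn1a and by -0.06, 0.01 and 0.42 for Phlda3. Among all genes 0 of 18193 passed this test by limma, beside 1864 at an unadjusted p under 0.05. The mean shift of Rrm2b between sets, 0.21, stands next to its treated minus saline difference of 0.53 at day 23.

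**Figure D4:**
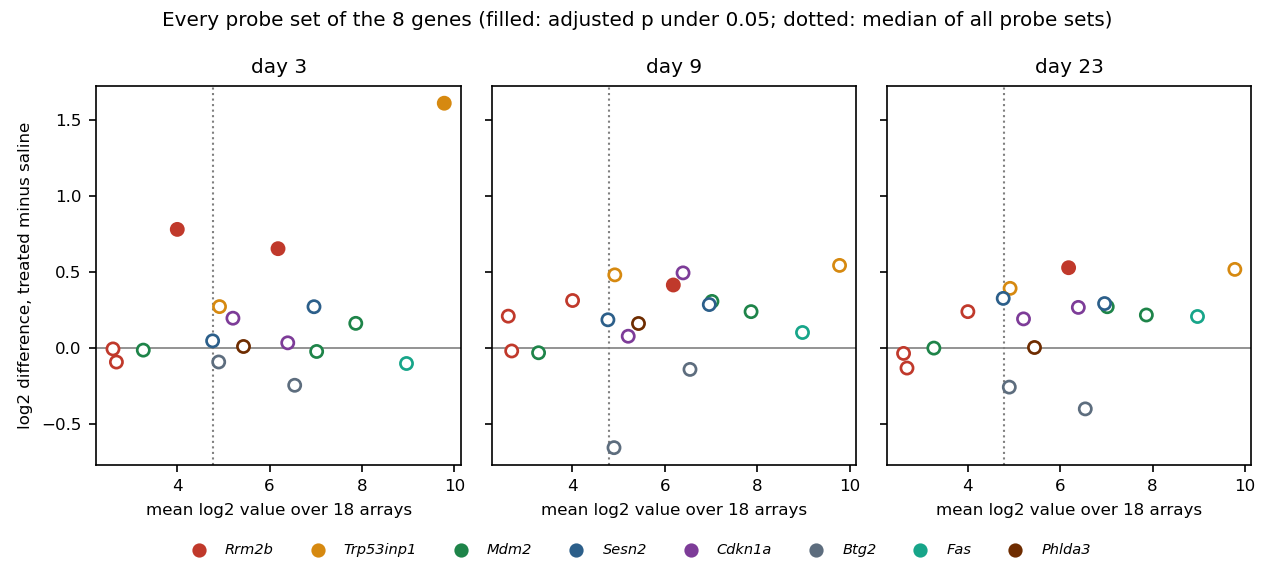
Treated minus saline difference (log2, vertical axis) of each of the 17 probe sets of the 8 genes against its mean level over 18 arrays, at days 3, 9 and 23. The dotted line is the median of all probe sets, 4.79, and filled points have an adjusted p under 0.05 over every probe set. At day 3 the filled points are 2 probe sets of Rrm2b and 1 of Trp53inp1, and at days 9 and 23 the brightest Rrm2b probe set.

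Of the 17 probe sets of these 8 genes, 12 lay above the median level. Tested probe set by probe set, 3 of the 17 rose at day 3, beside 1.4% of 45037 probe sets, and 1 rose at each of days 9 and 23, beside 1.14% and 0.0711%. These were 2 probe sets of Rrm2b and 1 of Trp53inp1 at day 3, and the brightest Rrm2b probe set after that, whose adjusted p was 0.0454 at day 9 and 0.0499 at day 23.

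Further p53 targets outside the list did not rise at any day. Of 24 such genes, among them Zmat3, Aen, Bbc3, Pmaip1, Sesn1 and Gadd45a, 0 rose and 0 fell at day 3 by limma, with 3 at an unadjusted p under 0.05. At day 9, 0 rose and 2 fell, and at day 23, 0 rose and 0 fell, with 4 at an unadjusted p under 0.05 on each of these days. Of all 18193 genes, 2.63%, 1.91% and 0.187% rose and 1.88%, 0.896% and 0.198% fell at days 3, 9 and 23. An unadjusted p under 0.05 was found for 3328, 3052 and 2522 of them. The same shares stand beside the counts of the following lists. Eda2r, Pmaip1, Tnfrsf10b, Ak1 and Ddit4l were dimmer than the median probe set (means 3.24, 3.70, 3.87, 4.15 and 4.69), where a rise is harder to see. The medians were -0.04, -0.05 and -0.00 at days 3, 9 and 23. The 2 that fell were Bid, a BH3-only protein of the death pathway (log2 difference -0.99, SE 0.24, adjusted p = 0.0359), and Ei24, an endoplasmic reticulum membrane protein (log2 difference -0.38, SE 0.07, adjusted p = 0.012). At day 3 the largest differences in this list were 0.67 for Ckap2 (adjusted p = 0.0725) and -0.48 for Bid (0.305). At day 23 they were -0.53 for Bid (adjusted p = 0.331) and -0.51 for the kinase Plk3 (0.364), and Zmat3 had the highest, 0.44 (0.141). The calls in this and the following lists were not rerun under the alternative settings.

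The regulators of p53 were measured for 11 of 12 genes, and Trp53 itself was not analysed here. At day 3, 1 fell and 0 rose. It was Atm, the kinase that signals DNA double-strand breaks, which stood at 6.48 ± 0.20 in treated mice and 7.01 ± 0.20 in saline mice (log2 difference -0.53, SE 0.12, adjusted p = 0.0196). The related kinase Atr differed by -0.33 (adjusted p = 0.0628). At days 9 and 23, 0 of 11 passed by limma, with 2 and 3 at an unadjusted p under 0.05. The largest differences at day 9 were those of Rchy1 (0.39) and Usp7 (0.21), and at day 23 those of Trp53bp1 (0.38) and Mdm4. Mdm4, the partner of Mdm2 in restraining p53, differed by -0.13, 0.16 and 0.37 at days 3, 9 and 23 (SE 0.14 each, adjusted p = 0.687, 0.609 and 0.226).

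Among 10 genes of deoxynucleotide supply, the pathway in which p53R2 works, 1 rose at day 3 and 0 passed at days 9 and 23 by limma (0 and 2 at an unadjusted p under 0.05). The gene that rose was Dck, deoxycytidine kinase (log2 difference 0.58, SE 0.16, adjusted p = 0.041). Rrm1, the large subunit that pairs with p53R2, read 6.82 ± 0.04 in treated mice and 6.77 ± 0.02 in saline mice at day 3, and differed by 0.05, 0.05 and 0.18 at the 3 days (SE 0.08 each). None of these passed. Rrm2, the small subunit used in S phase, differed by 0.95 at day 3 (SE 0.28, adjusted p = 0.061), by -0.23 at day 9 and by 0.41 at day 23. Its mean of 4.76 was below the median of all probe sets. At day 3 its treated values were widely spread, 5.36 ± 0.70, against 4.40 ± 0.23 in saline mice (SD, n = 3 each). After Rrm2, the next largest differences were -0.22 for Dctd at day 9 and 0.31 for Tk1 at day 23, and neither passed.

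**Figure D5:**
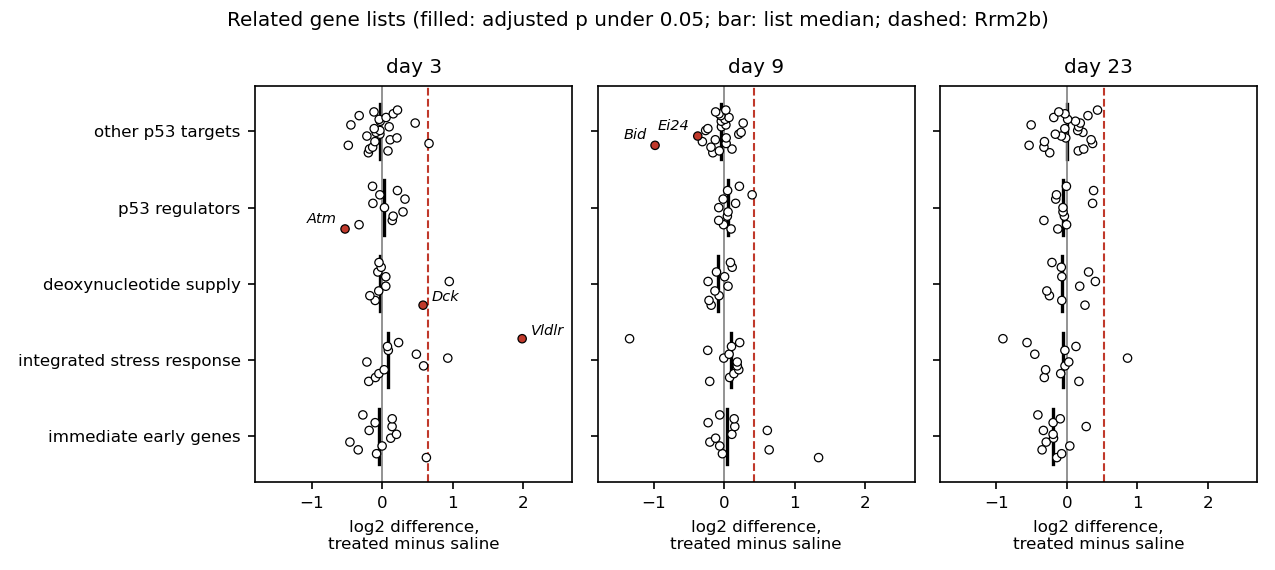
Treated minus saline difference (log2, horizontal axes) of the genes of 5 related lists at days 3, 9 and 23, each point a gene. Filled points have an adjusted p under 0.05 and are named, bars are list medians, and the dashed line is the Rrm2b difference of that day. The medians lie between -0.19 and 0.09, and Bid, Ei24 and Atm are the genes that fell.

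Several members also answer to signals other than p53, and lists for 2 such signals were examined. Sesn2 is a target of the integrated stress response, the programme of the transcription factor Atf4. Of 12 genes of that response 1 rose at day 3, Vldlr, a lipoprotein receptor (3.97-fold, log2 difference 1.99, SE 0.50, adjusted p = 0.0308). At days 9 and 23, 0 passed by limma (2 and 2 at an unadjusted p under 0.05), and Vldlr differed by -1.35 and -0.91, followed by Phgdh at day 9 (-0.24) and Ddit4 at day 23 (0.86). The medians of this list were 0.08, 0.09 and -0.06, and Atf4 itself differed by -0.05, 0.13 and -0.09. Btg2 belongs to the immediate early genes, of which 0 of 12 passed at any day by limma (1, 1 and 0 at an unadjusted p under 0.05), with medians of -0.04, 0.04 and -0.19. The largest difference there was that of Dusp1, a phosphatase that inactivates MAP kinases, with 1.34 at day 9 (SE 0.37, adjusted p = 0.0661). Dusp1 and Ier2 led at day 3 (0.63 and -0.46), Fos followed Dusp1 at day 9 (0.63), and Zfp36 and Fos led at day 23 (-0.41 and -0.35).

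Ccng1 was higher at the same 3 days as Rrm2b. At day 3 it read 8.99 ± 0.06 in treated mice and 8.03 ± 0.15 in saline mice, a 1.95-fold difference (log2 0.97, SE 0.10, adjusted p = 2.69e-05). At days 9 and 23 the differences were 0.52 and 0.50 (SE 0.10 each, adjusted p = 0.0109 and 0.0423). The day 23 call of Ccng1 ended under 18 of 29 other settings (differences 0.34 to 0.59), among them the loss of any 1 of that day's 6 arrays (adjusted p 0.0628 to 0.126). Its 3 probe sets differed by 0.97, 0.31 and 0.65 at day 3. Likeness to Rrm2b was measured as the root mean square distance over 18 arrays between profiles centred on their own mean, among 11685 genes brighter than the median. Ccng1 was 24th nearest of these, at 0.16 log2 units, whereas Sesn2 was 154th (0.21), Mdm2 175th (0.22) and Fas 1258th (0.28). Phlda3 was 3557th, Btg2 10940th, Trp53inp1 11504th and Cdkn1a 11599th. A gene that varies little lies nearer by this measure than a gene that varies much, whatever its direction. The 5 nearest genes were Bloc1s6 (0.13), Mcrs1 (0.13), Aida (0.13), Vipas39 (0.14) and Med28 (0.14). Their day 3 differences were 0.58, 0.61, 0.72, 0.66 and 0.61. These genes were picked by closeness to Rrm2b over the same arrays, so day 3 differences near its own follow from that choice. No p53 response gene of the list was among these 5 genes.

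Other gene groups moved on the days on which these genes were compared. Of 12 markers of Kupffer cells and macrophages, 7 rose at day 3, led by Marco (1.98), Clec4f (1.04), Cd68 (1.03) and C1qc (0.95). Their mean level per mouse was 9.14 to 9.76 in treated mice, against 8.04 to 9.04 in saline mice. Of 11 lymphocyte markers 3 rose, Gzma, Gzmb and Ccl5, with mean levels of 5.42 to 5.64 in treated mice, against 4.88 to 5.11 in saline mice. The markers Cd3g, Ms4a1 and Cd79a were dimmer than the median of all probe sets. Of 7 interferon response genes 6 rose at day 3, led by Ifit1 (3.04), Oasl2 (2.94), Irf7 (2.704) and Usp18 (2.35), and 5 at day 9, led by Ifit1 (1.58), Usp18 (1.38), Oasl2 (1.297) and Ifit3 (0.89). Of 14 cell cycle genes Mcm5 (1.49), Top2a (1.15) and Cdk1 (1.13) rose at day 3 and Ccnd1 (1.58) at day 9, and of the 7 hepatocyte markers Apob rose at day 9 (0.98). At day 9, 0 of 12 macrophage and 0 of 11 lymphocyte markers passed by limma (5 and 0 at an unadjusted p under 0.05). Of the hepatocyte markers 0 of 7 passed at days 3 and 23 (0 and 1 at an unadjusted p under 0.05). At day 23, 0 of 12 macrophage, 0 of 11 lymphocyte, 0 of 7 interferon and 0 of 14 cell cycle genes passed by limma (2, 1, 6 and 3 at an unadjusted p under 0.05). For the actin control, the log2 signal of its 3′ probe set minus that of its 5′ probe set was 1.03 ± 0.02 in treated and 0.80 ± 0.05 in saline mice at day 3, and 1.14 ± 0.02 in treated and 0.93 ± 0.06 in saline mice at day 9. At day 23 it was 1.15 ± 0.16 in treated and 1.16 ± 0.04 in saline mice (SD, n = 3 each). The part of these groups and of this ratio in the Rrm2b and Trp53inp1 differences was not tested.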

How the data were processed

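The authors deposited log2 values summarised with RMA, per the submitters' processing notes. Neither its version nor which arrays were normalized jointly is stated there. The table held 45101 probe sets on 21 arrays. Gene names came from GEO's platform annotation, in which 34945 had 1 gene symbol, 932 several and 9160 none (64 were controls). The brightest probe set stood for each of 18193 genes. Group means of 18 arrays, 1 per mouse, were fitted with limma 3.58.1 (lmFit and eBayes, 12 residual and 4.85 prior degrees of freedom) in R 4.3.3 with data.table (version 1.17.8). P-values are two-sided and adjusted by Benjamini-Hochberg over all genes. The members and lists were chosen with earlier results of these data known. Named were all members, Ccng1, Trp53, Mdm4, Rrm1 and Rrm2, up to 4 called genes per list and day (or the 2 largest differences where none was called), and the 5 genes nearest to Rrm2b. Atr, Zmat3 and Atf4 were added after their values were seen. On simulated data with known changes, 50%, 44% and 54% of genes changed by 0.5 were recovered at days 3, 9 and 23, and 94%, 92% and 94% of those changed by 1. The simulation used independent normal noise and changed the same genes at each day, with 9, 3 and 12 false calls. In the measured data 821, 511 and 70 genes were called, so the shares recovered there can differ. Alternatives covered normalization, probe sets, prior, block, covariate and each array left out. Python 3.11.15 and matplotlib 3.10.9 drew the figures.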

Additional observations from a re-analysis of the deposited data

How the results depend on the processing

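The day 3 calls of Rrm2b and Trp53inp1 held under all 28 other settings. Rrm2b at day 9 lost its call with only that day's own 6 arrays (0.41, adjusted p = 0.0874), with quantile normalization (0.36, 0.0505) and on the mean of its probe sets (0.23, 0.101), each leaving 0 members called. At day 23 it lost it with the day's own 6 arrays (0.53, 0.163), the mean of probe sets (0.15, 0.37), the p0617 arrays (0.31, 0.14) and the signal of the actin 3′ control probe set as a covariate (0.58, 0.0603), again leaving 0 members. Leaving out 1 array at a time, the Rrm2b difference was 0.36 to 0.48 at day 9 and 0.48 to 0.57 at day 23, with 0 to 1 members called on each day. The mean-of-days difference of Mdm2 lost its call on the mean of probe sets (0.13) and with the actin covariate (0.21). The cause was not tested. Ccng1 at day 23 lost its call with the day's own arrays (0.50), median centring (0.50), the mean of probe sets (0.34), every probe set tested (0.50), the replicate block (0.50) and the p0617 arrays (0.42), and was 0.38 to 0.59 with 1 array left out.

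Treated and saline samples with the same replicate number did not deviate together (correlations -0.22 to 0.10), so the replicate numbers do not pair them. With the replicate block, Rrm2b at day 23 was 0.53 (adjusted p = 0.0534), with 0 members and 13 of all genes called.

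The number of genes called fell most with fewer arrays, to 253, 132 and 0 at days 3, 9 and 23 with the day's own 6 arrays. At day 23 it was 139 with quantile normalization, 43 with centring, 214 over genes above the median level, 210 with an intensity trend and robust prior, 259 with all 21 arrays, 179 with the p0617 arrays and 9 with the actin covariate. The covariate gave 287 at day 9 and 1393 for the mean of days. With 1 array left out the counts were 435 to 876, 176 to 529 and 3 to 115 at days 3, 9 and 23.

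For the 7 measured members other than Rrm2b, 582 of 595 values kept direction and call. The 13 that changed sign belong to differences that were not called. Phlda3 at day 23 was -0.016 with quantile normalization, -0.054 with 21 arrays and -0.12 with the p0617 arrays, and Phlda3 at day 3 was -0.0020 with centring. With 1 array left out, Cdkn1a at day 3 ranged from -0.27 to 0.27, Btg2 from -0.52 to 0.027 at day 3 and from -0.34 to 0.11 at day 9, and Phlda3 from -0.012 to 0.033 at day 3 and from -0.12 to 0.085 at day 23.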

Other observations

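Beside Rrm2b and Ccng1, the genes higher at all 3 days were Ang, Ankrd13c, Arhgef7, Atp6v0a2, Bloc1s6, Gmfb, Gnpda1, Met, Ppp6c, Rabgap1l, Rdh9 and Slc35a4. None of them belongs to the lists of p53 targets or regulators. In mouse 38, Phlda3 read 5.41 on the p0621 array and 4.98 on the p0617 array, a difference of 0.42 between repeat arrays of 1 mouse.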
